A study of Homo sapiens with 8 samples.

Results

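The genes examined here encode the proteins of the large subunit of the cytosolic ribosome. They were chosen by name, as the rows of the gene count files whose identifiers map to 45 listed protein-coding symbols, from RPL3 to RPLP2, with pseudogenes left out. All 45 were found among the 58395 genes listed, and all 45 passed the filter on low counts. RNA came from OCI-AML3, an established human acute myeloid leukaemia line, infected with lentivirus that carried either a control hairpin (genotype label WT, here labelled control) or a hairpin against FBL (label FBL knockdown, here labelled knockdown). FBL encodes fibrillarin, the nucleolar enzyme that adds 2'-O-methyl groups to ribosomal RNA. Before lysis every group received cycloheximide (100 µg/mL, 15 min), a drug that stalls ribosomes in place on mRNA. Each cleared lysate gave input RNA and, after a sucrose gradient of 10% to 50% cut into 14 fractions, polysome RNA. The sources used here do not give which fractions made up the polysome RNA. There were 2 libraries in each of 4 groups (input control, input knockdown, polysome control, polysome knockdown), 8 in all, numbered 1 and 2 by their titles. Whether those libraries came from separate cultures or infections is not stated, so the p-values reflect only variation among these libraries, part of which may be technical.

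The large subunit joins amino acids at its peptidyl transferase centre, passes the growing chain through an exit tunnel, and recruits elongation factors through a flexible stalk. Most of its proteins are made in near-equal amounts and assembled with ribosomal RNA in the nucleolus, the compartment in which fibrillarin works. The mRNAs of most ribosomal proteins start with a cytosine followed by a run of pyrimidines, the 5' terminal oligopyrimidine (TOP) motif. Through this motif the kinase mTOR and the protein LARP1 control how many ribosomes such mRNAs carry.

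The start of the transcript is the sequence feature that defines a TOP mRNA, so the start windows of members at the extremes of the comparisons below are shown. They were read from RefSeq promoter sequences on GRCh38.p14, which held 38 of the 45 members. RPL5, RPL7, RPL8, RPL23, RPL23A, RPL30 and RPL37 are not in that table. Each window runs 5' to 3' on the gene's strand and holds 10 bases before the annotated start and 20 bases from the start on. Capitals mark the unbroken pyrimidine run that covers the start.
RPL14: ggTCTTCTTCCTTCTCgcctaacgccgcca
RPL36: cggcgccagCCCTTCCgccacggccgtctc
RPL36A: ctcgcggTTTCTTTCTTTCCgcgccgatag
RPL39: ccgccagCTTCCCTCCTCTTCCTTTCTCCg
RPL12: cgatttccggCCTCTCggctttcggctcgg
RPL35: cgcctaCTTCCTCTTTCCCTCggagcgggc
RPL27: gtgaaaggttagcggaagtgtccttctttc
RPL32: ggtgacccttgacctcctgggatcgcatct
The RPL14 window lies at chr3:40457329-40457358 on the plus strand and that of RPL36 at chr19:5690285-5690314 on the plus strand. The RPL12 window lies at chr9:127451387-127451416 on the minus strand. A cytosine followed by at least 4 pyrimidines stood at an annotated start of 28 of the 38 members (73.68%), against 6.24% of 15843 protein-coding genes in the same table. RPL27 and RPL32 have no pyrimidine run that covers the start printed here. With the run allowed anywhere within 10 bases of the start, the shares were 92.11% of members and 41.07% of protein-coding genes. Of the 27 small-subunit genes in the table, 21 (77.78%) had the run at the start. An annotated start can differ from the start used in these cells, so a window without a run says only that these letters are not there.

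Counts assigned to genes ranged from 22171255 to 43118190 per library. FBL did not follow the labels. It stood at 250 and 88.1 CPM in input control, 253 and 84.2 CPM in input knockdown, 498 and 163 CPM in polysome control, and 499 and 165 CPM in polysome knockdown. CPM are counts scaled to library size, here after TMM, the trimmed-mean normalization of edgeR. In every group the library numbered 1 was above the one numbered 2, and the labels give the number no meaning. The FBL counts therefore do not bear out the knockdown label, and each direction by label below is drawn between libraries so labelled. Of the myeloid markers, SPI1 (812 to 1005 CPM), CEBPA (188 to 481 CPM) and ANPEP (98.2 to 186 CPM) were present, while CD33 was at 7.20 to 25.2 CPM and MPO at 0 to 3.31 CPM. CD3E, MS4A1 and EPCAM, which define lymphoid and epithelial cells, were at 0 in every library.

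The members made up 7.24% and 7.33% of gene counts in the input control libraries and 7.76% and 7.89% in input knockdown. In polysome RNA they made up 6.53% and 6.55% in control and 6.60% and 6.87% in knockdown. The 2 fractions did not overlap, and the input share was higher in both libraries labelled knockdown than in both labelled control. Libraries of a group differed least in input control, where the median coefficient of variation over members was 1.93% (n = 2), and most in polysome knockdown, where it was 8.29% and 17 of 45 members exceeded 10%.

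The counts per length of the members' mRNAs were not alike. Per kilobase of transcript, the median input level over the 4 input libraries was highest for RPLP1, a stalk protein, at 6861 CPM per kilobase (6380 to 7222). RPL35 of the exit tunnel followed at 6254 (6053 to 6697), then RPL8 near the peptidyl transferase centre at 5740 (5510 to 6295) and RPL12 of the stalk base at 5405 (5324 to 6041). Each of these overlapped its neighbours in the order, while RPLP1 did not overlap RPL8 or RPL12. The lowest were RPL30 at 333, RPL36A at 273 and RPL17 at 136 CPM per kilobase. The order depends on the transcript length assumed for each gene. With the shortest transcript annotated as principal, the mean input level of RPLP1 was 2539 CPM per kilobase in place of 6831. By that length RPL35 (6315), RPL13 (6123), RPL8 (5972) and RPL12 (4957) were the highest. RPLP2 (4864), RPL36 (3691), RPL28 (3562), RPL29 (2888), RPL13A (2710), RPL38 (2680) and RPL41 (2648) also stood above RPLP1.

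Low levels went with reads on pseudogenes for some of these genes. The genome holds 1084 annotated pseudogenes of the 45 members, and the aligner used cannot split a read over an intron, so that a read from a junction of 2 exons may go uncounted or land on an intronless copy. For RPL36A the counts on its pseudogenes came to 77.0% to 251% of its own counts, for RPL9 to 132% to 241% and for RPL17 to 26.5% to 44.2%. RPL7, RPL3, RPL22 and RPL6 also exceeded 10% in at least 1 library, and the other 38 members stayed below. RPL17 and RPL36A also overlap readthrough genes on their own strand (RPL17-C18orf32 and RPL36A-HNRNPH2). Levels of these 7 members are uncertain for that reason.

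In the libraries labelled control, polysome against input RNA asks which member mRNAs were over- or under-represented among ribosome-bound RNA. The members split. RPL32, RPL35, RPL18, RPL27, RPL8 and RPL10 were the 6 highest in polysome RNA among those called, and RPL12, RPL6, RPL23A, RPL14, RPL4 and RPL17 the 6 lowest. RPL32, a protein of the outer body of the subunit, stood at 1054 and 1026 CPM in input and at 2004 and 2086 CPM in polysome RNA, which is 0.97 higher on the log2 scale (SE 0.10, adjusted p = 7.3e-05, edgeR quasi-likelihood test). RPL12, which anchors the stalk base, stood at 3043 and 3013 CPM in input and at 1416 and 1277 CPM in polysome RNA, giving -1.17 as the log2 fold change (SE 0.10, adjusted p = 4.3e-05, edgeR). Both genes had polysome libraries well clear of the input libraries, in opposite directions.

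Calls were made at an adjusted p under 0.05 (edgeR, Benjamini-Hochberg adjustment over all 16503 genes tested). By this rule 15 of 45 members (33.3%) were higher and 17 (37.8%) lower in polysome RNA, against 16.5% higher and 12.7% lower of all genes tested. Members are abundant, and among the 3677 genes averaging at least 50 CPM the calls were 53.7% higher and 14.6% lower. The median log2 fold change of the members was 0.08, against -0.13 for all genes tested and 0.48 for the genes averaging at least 50 CPM. Polysome RNA and input RNA were each scaled to their own total, so only the order among genes can be read, not the number of ribosomes per mRNA. With genes averaging at least 10 CPM tested, the median of the members was -0.07 and 8 were called higher. In that fit 2337 of 8194 genes were called higher. Without input control 1, 7 were called higher, and likewise 7 without input control 2.

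The libraries labelled knockdown gave much the same order. There 11 members were higher and 16 lower in polysome RNA (backgrounds 14.2% and 14.3% of all genes tested, 47.9% and 15.1% of genes averaging at least 50 CPM). Their median was -0.09, against -0.18 for all genes and 0.38 for the abundant ones. RPL27, an outer-body protein, was highest at 1.06 (SE 0.12, adjusted p = 0.00017, edgeR), followed by RPL32 at 0.95 and RPL18 at 0.77. RPL12 was again lowest at -1.21 (SE 0.10, adjusted p = 5.7e-05, edgeR), followed by RPL39, the small protein that lines the exit tunnel, at -1.14 and RPL36A, which sits at the tRNA exit site, at -1.11. The same 10 members were called higher under both labels (RPL7A, RPL8, RPL10, RPL13A, RPL15, RPL18, RPL24, RPL27, RPL32 and RPL35), and the same 16 lower. RPL36A is among the latter, but with the counts of its pseudogenes added it was at 0.04 (adjusted p = 0.87) in control and -0.19 (adjusted p = 0.27) in knockdown. RPL17 was lower in control (-0.67, SE 0.15, adjusted p = 0.0080, edgeR) and at -0.26 (SE 0.15, adjusted p = 0.23) in knockdown. RPL36 was higher in control (0.32, SE 0.09, adjusted p = 0.023, edgeR) and at -0.21 (SE 0.09, adjusted p = 0.11) in knockdown, where the lysate block made it a lower call (adjusted p = 0.017). RPL14 and RPL37 were lower under both labels, RPL14 at -0.84 and -0.32 and RPL37 at -0.27 and -0.84.

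**Figure D1:**
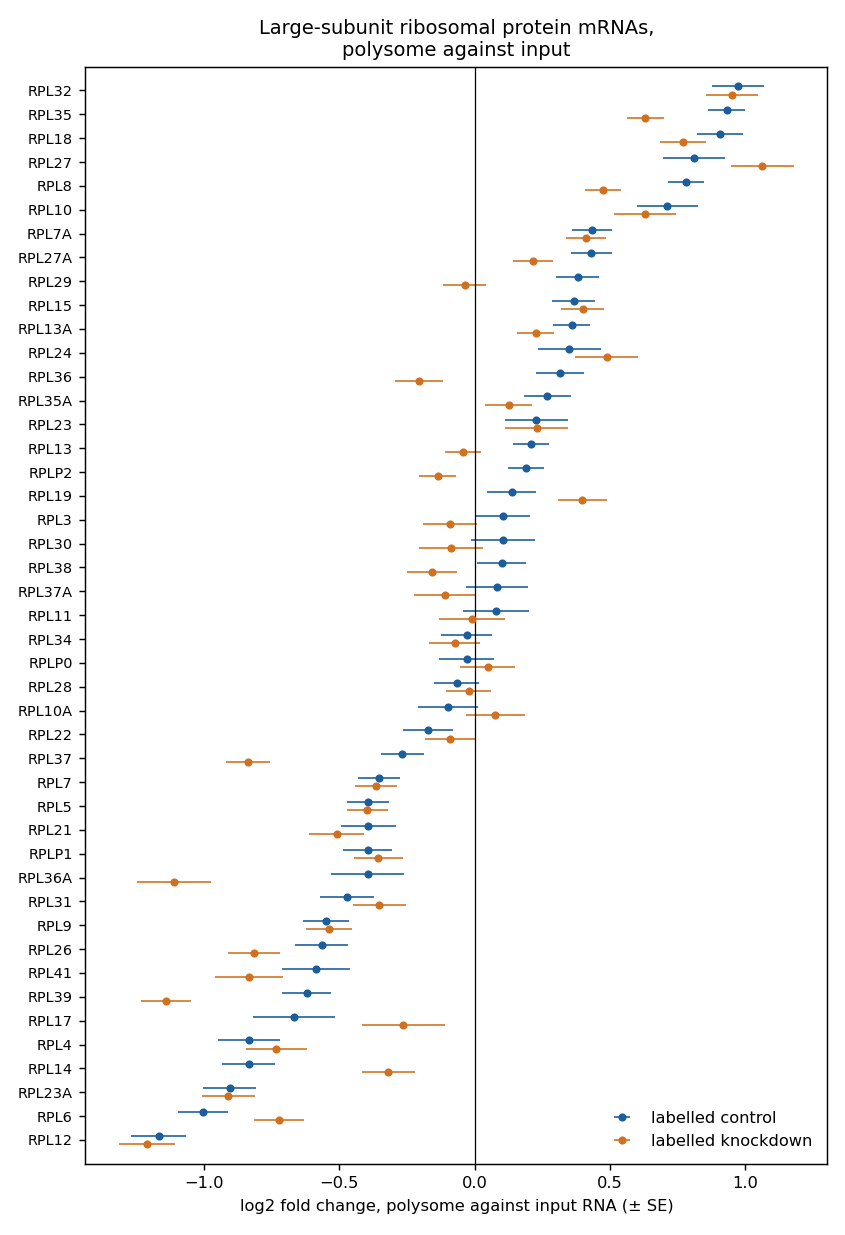
Log2 fold change of polysome against input RNA for each of the 45 members, in libraries labelled control (blue) and labelled knockdown (orange), with the SE as bars. RPL32 is at the top at 0.97 in control and RPL12 at the bottom at -1.17, and members such as RPL37, RPL36A, RPL39 and RPL36 lie further left in knockdown, while RPL14 and RPL17 lie further right.

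By place in the subunit, proteins of the exit tunnel were mostly on the low side. In control, 6 of 8 were lower in polysome RNA (RPL4, RPL17, RPL23A, RPL26, RPL31 and RPL39) and 1 was higher (RPL35), with a median of -0.59. With the GC correction described below, RPL4 (-0.49) and RPL23A (-0.74) were still called lower and RPL35 higher. RPL17 (-0.10), RPL26 (-0.02), RPL39 (-0.01) and RPL31 (0.10) were then not called. Of the 4 stalk proteins, RPL12 and RPLP1 were lower and none was higher, while RPLP0, the stalk scaffold, was at -0.03 and RPLP2 at 0.19. The lysate block made RPLP2 a higher call (adjusted p = 0.0055), and the GC correction described below made it a lower call at -0.41 (adjusted p = 0.013), or 2.1e-05 with the block as well. Of the 22 proteins of the outer body, 11 were higher and 6 lower (median 0.15). Of the 5 proteins near the tRNA sites, RPL8 and RPL10 were higher and RPL36A lower, with RPL3 at 0.11 and RPL10A at -0.10. RPL24 was higher and RPL41 lower among the 4 proteins that bridge to the small subunit. RPL5, which carries 5S ribosomal RNA together with RPL11, was lower at -0.39, and RPL11 was at 0.08.

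GC content moved with this order. Over the 45 members, the Spearman correlation of GC content of the annotated transcripts with the polysome against input fold change was 0.53 in control and 0.48 in knockdown. It was 0.49 and 0.45 over 16477 genes, and 0.68 and 0.59 over the 3677 genes averaging at least 50 CPM. All of these values rest on the same libraries and are given as descriptions. RPL12, the lowest member, had 52.1% GC, and RPL32, the highest, 50.4%, so the extremes were not those of GC content. RPL36 and RPL8 had 62.2% and 62.4%, and RPL37 had 43.2%.

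A smooth correction of each library for GC content, chosen after seeing the data, left 8 members lower and 15 higher in control. With it, 853 of 16477 genes were called lower and 1881 higher, against 2090 and 2720 of 16503 without it. The fall in lower calls was thus not particular to the members. Of the 17 members called lower without it, 6 stayed lower, and of the 15 called higher, 10 stayed higher. RPL12 (-1.19) and RPL32 (1.08) kept their values. RPL17 went to -0.10, RPL8 to 0.17, RPL37 was called in the other direction at 0.38, and RPL36 went to -0.29. Under both labels and with and without the correction, 8 members were called higher (RPL7A, RPL10, RPL15, RPL18, RPL24, RPL27, RPL32 and RPL35) and 3 lower (RPL12, RPL23A and RPLP1).

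**Figure D2:**
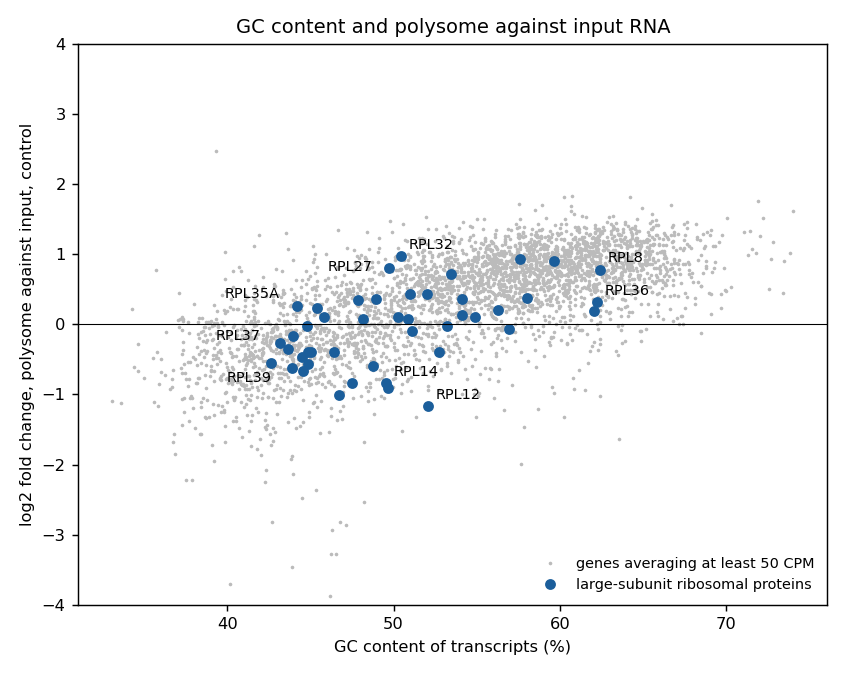
Log2 fold change of polysome against input RNA in libraries labelled control (y axis) by GC content of the annotated transcripts in percent (x axis). Grey points are the 3677 genes averaging at least 50 CPM, of which 7 lie outside the axis limits, and blue points are the members, which lie higher at higher GC content as the grey points do but reach from -1.17 (RPL12) to 0.97 (RPL32) near 50% GC.

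Genes of the same machinery were set beside the members. Of 34 small-subunit ribosomal proteins, 16 were higher and 7 lower in polysome RNA in control (median 0.25), and 16 and 9 in knockdown (median 0.26). FAU, whose product is cut to release a small-subunit protein, was the highest, at 389 and 404 CPM in input control and 1116 and 1128 CPM in polysome control. RPS6, a substrate of the S6 kinases, was the lowest at -1.12. Of 16 other mRNAs known to carry a TOP motif, 4 were higher and 8 lower in control (median -0.42). Among these, the elongation factor subunit EEF1G was at 1.81 and the poly(A)-binding protein PABPC1 at -2.82. Of 15 factors that chaperone large-subunit proteins or finish the subunit, 3 were higher and 7 lower (median -0.29). Of 11 regulators of TOP mRNAs and TOR signalling, LARP1, RPTOR and EIF4EBP1 were higher and LARP4 lower.

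Knockdown against control in input RNA asks whether the members' mRNAs changed in amount. No member was called, and no gene of the 16503 was (0% called, edgeR). Values were nonetheless mostly on 1 side, with 37 members positive and 8 negative and a median log2 fold change of 0.17, against 0.00 for all genes tested and -0.03 for genes averaging at least 50 CPM. Both libraries labelled knockdown lay above both labelled control for 34 members and below them for 2. The backgrounds were 21.6% above and 29.1% below among genes averaging at least 50 CPM. At an unadjusted p under 0.05 there were 18 members on the higher side and 1 on the lower, 42.2% of members, against 4.51% of all genes and 12.6% of the abundant ones. That count of 19 ranged from 2 to 24 over the alternatives and was 2 without input knockdown 2, 5 without input control 1, 8 without input control 2 or input knockdown 1, and 8 with RLE scaling.

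RPL36A had the largest value at 0.46 (SE 0.13, adjusted p = 0.81), from 169 and 172 CPM in control and 206 and 261 CPM in knockdown. RPL37, an outer-body protein that binds zinc, stood at 2260 and 2388 CPM in control and 2974 and 3084 CPM in knockdown, a difference of 0.38 on the log2 scale (SE 0.08, adjusted p = 0.66, edgeR). Its libraries did not overlap, and DESeq2 called it, as its only member, with an adjusted p of 0.014. In limma-voom no member was called. RPL29 and RPL11 followed at 0.32 each. RPLP0 was the lowest, at 1632 and 1728 CPM in control and 1478 and 1320 CPM in knockdown (-0.26, SE 0.10, adjusted p = 1). RPL14 and RPL36 were at 0.12 (SE 0.10) and 0.13 (SE 0.09), about the size of their error. All 8 exit-tunnel proteins had positive values (median 0.16), and 3 of the 4 stalk proteins had negative ones. Small-subunit proteins had a median of 0.09, with 28 of 34 positive. In bulk RNA a shift of RNA per cell and a shift in the mix of cells cannot be told apart.

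In polysome RNA, knockdown against control asks the same of ribosome-bound mRNA. RPL14, a protein of the outer body that lies beside RPL6, was the only member called in the fit without a block, and it was higher. It stood at 499 and 516 CPM in polysome control and at 722 and 856 CPM in polysome knockdown, which is 0.64 higher on the log2 scale (SE 0.10, adjusted p = 0.036, edgeR). No member was called lower in that fit, where 12 higher and 7 lower had an unadjusted p under 0.05, DESeq2 called 8 higher and 2 lower, and limma-voom 2 and 5. Of all genes tested, 0.248% were called higher and 0.63% lower in that fit, and 2987 of 16503 had an unadjusted p under 0.05. Over the same genes DESeq2 called 508 higher and 695 lower, and limma-voom 75 and 222. In input RNA RPL14 stood at 918 and 893 CPM in control and 957 and 1012 CPM in knockdown. The gene lies at chromosome 3, 40457292 to 40468587, on GRCh38, and its pseudogenes held at most 0.796% of its counts.

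The call of RPL14 rests close to the threshold. Its fold change was between 0.51 and 0.76 over 20 alternatives, and 13 of them called it. It missed without polysome control 1 (adjusted p = 0.093), polysome control 2 (0.13), polysome knockdown 2 (0.050), input knockdown 1 (0.069) or input knockdown 2 (0.079), with the GC correction (0.056) and when polysome libraries were fitted alone (0.27). The count of members called also depended on a library. Without polysome knockdown 1, 12 members were called higher and 4 lower, with 8.21% of all genes called.

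**Figure D3:**
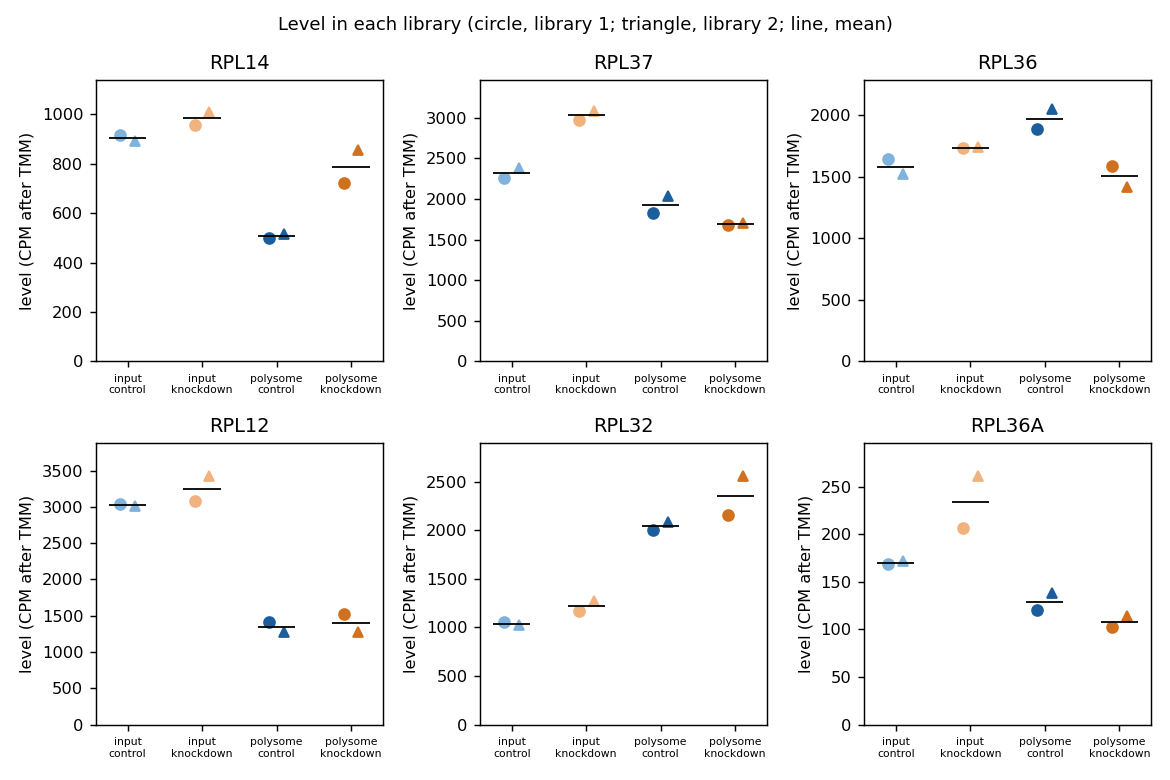
Level in CPM after TMM scaling (y axis, from 0) of 6 members in each of the 8 libraries, with circles for library 1, triangles for library 2 and a line at the mean of each group. RPL14 is at 499 and 516 CPM in polysome control and at 722 and 856 CPM in polysome knockdown, RPL37 is highest in input knockdown, and RPL12 and RPL32 differ between input and polysome RNA in opposite directions.

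The 45 members spread to both sides in polysome RNA, with 27 positive and 18 negative and a median of 0.06, against -0.06 for all genes tested and -0.11 for the abundant ones. Their SD was 0.25, against 0.13 in input RNA. Both knockdown libraries lay above both control libraries for 15 members and below for 12, where the abundant genes gave 18.3% and 39.6%. After RPL14 the highest were RPL17 at 0.57 (SE 0.15, adjusted p = 0.10), whose reads are shared with pseudogenes, and RPL10A, a mobile protein near the tRNA exit site, at 0.46 (SE 0.11, adjusted p = 0.081). The lowest were RPL36 at -0.39 (SE 0.09, adjusted p = 0.071), the stalk protein RPLP2 at -0.34 (SE 0.07, adjusted p = 0.051) and RPL39 at -0.32 (SE 0.09, adjusted p = 0.12). RPL37 was at -0.19 (SE 0.08). The input and polysome comparisons use different libraries, although each pair comes from a shared lysate.

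**Figure D4:**
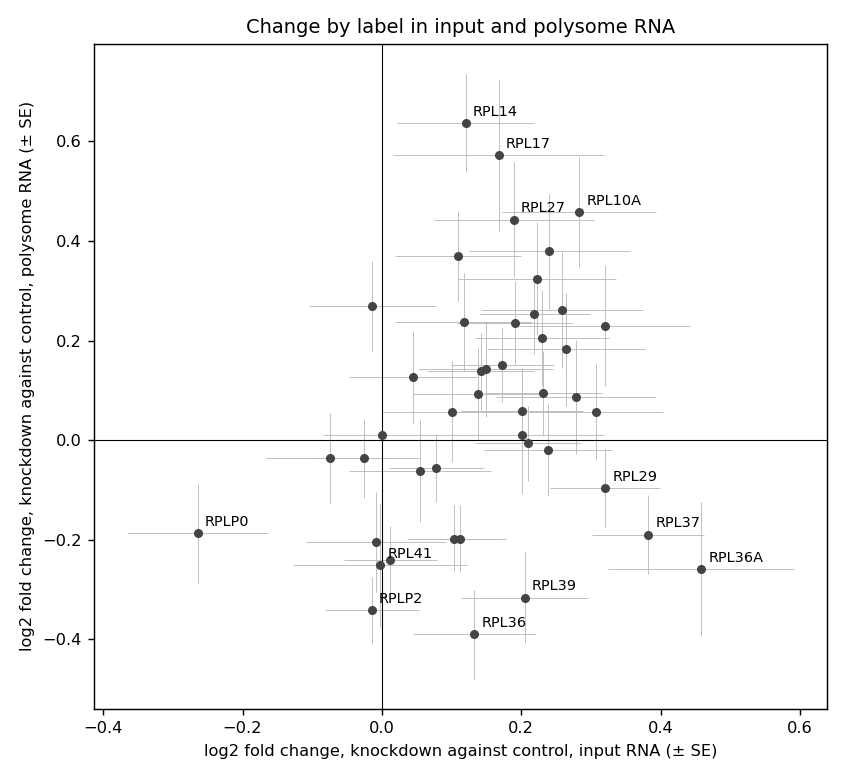
Log2 fold change of knockdown against control in polysome RNA (y axis) by that in input RNA (x axis) for the 45 members, with the SE as bars. Most points lie right of 0 in input RNA, while in polysome RNA they run from -0.39 (RPL36) to 0.64 (RPL14), and RPL37, RPL36A, RPL39 and RPL36 sit at the lower right.

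The polysome change less the input change, an interaction term over all 8 libraries, measures whether polysome association differed by label. Without regard to which input and polysome libraries came from the same lysate, no member was called, nor any gene (0% called, smallest adjusted p of a member 0.76, edgeR), and DESeq2 and limma-voom called 0 members too. At an unadjusted p under 0.05 there were 9 members on the lower side and 1 on the higher, 22.2% of members against 6.34% of all genes and 9.93% of those averaging at least 50 CPM. That count of 10 ranged from 6 to 20 over the alternatives. It was 20 with the lysate as a block, 18 without polysome knockdown 1, and 6 without input control 2 or with the GC correction. The lowest values were those of RPL36A (-0.72, SE 0.19), RPL37 (-0.57, SE 0.11), RPL36 (-0.52, SE 0.13) and RPL39 (-0.52, SE 0.13). With pseudogene counts added, RPL36A was at -0.23 (SE 0.18), and its change by label in polysome RNA at 0.19 in place of -0.26. The highest were RPL14 (0.52, SE 0.14), RPL17 (0.41, SE 0.22) and RPL6 (0.28, SE 0.13). The members' median was -0.04, against -0.08 for all genes tested, and changed sign with the scaling (0.02 with RLE or upper quartile scaling).

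With the lysate as a block, which follows the protocol, RPL37 and RPL36 were called lower, where 0.0545% of all genes (9 of 16503) were. RPL37 had a difference of -0.57 (SE 0.08, adjusted p = 0.0043) and RPL36 of -0.52 (SE 0.09, adjusted p = 0.040, edgeR with the lysate as block). In RPL37, the polysome libraries stood at 1830 and 2032 CPM in control and 1681 and 1706 CPM in knockdown, while the input libraries were higher in knockdown. In RPL36, the input libraries stood at 1641 and 1521 CPM in control and 1730 and 1738 CPM in knockdown, and the polysome libraries at 1888 and 2047 CPM in control and 1590 and 1414 CPM in knockdown. Both members thus had input libraries that were higher and polysome libraries that were lower in knockdown, with no overlap. This pattern was not particular to them, as 8 members had it. The others were RPL8, RPL13A, RPL29, RPL35, RPL36A and RPL39. The share of all genes with this joint pattern is not given here. RPL36A (-0.70), RPL14 (0.51) and RPL39 (-0.52) each had an adjusted p of 0.068 in that fit. With the GC correction and the block together, RPL37 (-0.50, adjusted p = 0.021) and RPL14 (0.57, adjusted p = 0.043) were called and RPL36 was not.

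RPL37 lies at chromosome 5, 40825262 to 40835335, on the minus strand of GRCh38, and hosts the box C/D RNA SNORD72. RPL36 lies at chromosome 19, 5674947 to 5691876, on the plus strand, and its annotated span overlaps LONP1 on the other strand and HSD11B1L on its own. The sources used here give no strand setting for the counting, so reads of RPL36 and LONP1 cannot be told apart where they overlap. Pseudogenes held at most 0.687% of the RPL37 counts and 0.0136% of those of RPL36.

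The members with low values in this comparison encode short proteins. Among the 15 members of 25 to 128 amino acids, the difference between polysome and input change had a median of -0.25 and was negative in 12. Among those of 135 to 192 amino acids the median was -0.02, with 9 of 15 negative, and among those of 196 to 427 amino acids 0.00, with 8 of 15 negative. Across the 45 members the Spearman correlation with protein length was 0.46, and it was -0.11 over 3624 genes averaging at least 50 CPM. RPL29, a protein of 159 amino acids at -0.42, and RPL8, of 257 amino acids at -0.31, were low without being among the shortest. These values rest on the same 8 libraries and are a description.

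**Figure D5:**
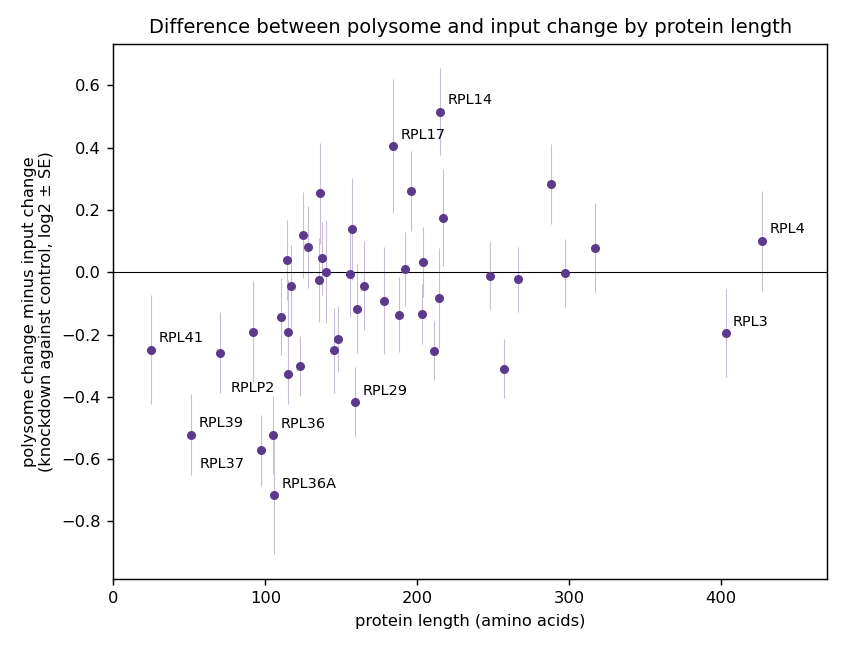
Polysome change minus input change, knockdown against control (y axis, log2 with the SE as bars), by protein length in amino acids (x axis) for the 45 members. Members of up to 128 amino acids lie mostly below 0, down to RPL36A at -0.72, while RPL14 with 215 amino acids is highest at 0.52.

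The pyrimidine run at the start was set beside the same values. The 28 members with a cytosine followed by at least 4 pyrimidines at the start had a median difference between polysome and input change of -0.13 (-0.72 to 0.52). The other 10 with a listed start had a median of 0.14 (-0.20 to 0.41). Those 10 do not all lack pyrimidines there, as RPL19 has a run of 12 and RPL3 a run of 5 covering the start. Within 10 bases of the start, 35 of the 38 members had such a run, so the split does not separate TOP from other mRNAs. RPL14, with the highest value, and RPL36A, with the lowest, both have the run. In polysome against input RNA in control the medians were 0.08 for the 28 and 0.00 for the 10.

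Fibrillarin acts through box C/D small nucleolar RNAs (snoRNAs), many of which lie in introns of ribosomal protein genes. Of the members, 10 host at least 1 annotated box C/D snoRNA (RPL3, RPL4, RPL5, RPL7A, RPL13, RPL13A, RPL17, RPL21, RPL23A and RPL37), and 18 host a snoRNA of any kind. The 10 box C/D hosts had a median of 0.15 in input RNA by label, 0.04 in polysome RNA by label and -0.33 in polysome against input RNA in control, where 3 were higher and 6 lower. The 35 members without one had medians of 0.19, 0.06 and 0.08, with 12 higher and 11 lower in the last comparison. All genes tested gave 16.5% higher and 12.7% lower there, and genes averaging at least 50 CPM 53.7% and 14.6%. Among the hosts called lower, RPL4 and RPL23A stayed lower with the GC correction, RPL17 was not called and RPL37 was called higher.

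Of the 9 members in which variants are known to cause Diamond-Blackfan anaemia, a failure of red cell production, all had positive values in input RNA by label (median 0.20, none called). Values were positive there in 37 of all 45 members. In polysome against input RNA in control, 5 were higher (RPL15, RPL18, RPL27, RPL35 and RPL35A) and 3 lower (RPL5, RPL26 and RPL31). Among all 45 members 15 were higher and 17 lower, and of all genes tested 16.5% and 12.7%. With the GC correction RPL26 and RPL31 were not called, while RPL15, RPL18, RPL27 and RPL35 stayed higher. RPL5 and RPL11 bind MDM2, a ubiquitin ligase, when ribosome assembly fails. MDM2 itself was not called by label in input (-0.23, SE 0.24) or polysome RNA (-0.92, SE 0.25, adjusted p = 0.10, edgeR). Its libraries 1 and 2 stood at 164 and 267 CPM in input control and 159 and 209 CPM in input knockdown. In polysome RNA they stood at 97.7 and 145 CPM in control and 62.9 and 65.2 CPM in knockdown. Library 2 was thus the higher in every group, the reverse of FBL.

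Of 7 paralogs that can stand in for members, 6 were tested and none was called by label. RPL39L, a paralog of RPL39, averaged 5.45 ± 0.181 CPM in the input libraries labelled control and 7.34 ± 0.485 CPM in those labelled knockdown (SD, n = 2 each). Its polysome levels were 9.65 ± 3.05 and 16.3 ± 3.49 CPM for the same labels. In knockdown, 2 paralogs were higher in polysome than in input RNA, among them RPL39L (1.15, SE 0.31, adjusted p = 0.021, edgeR), and RPL39 was lower. In control no paralog was called, RPL39L stood at 0.82, and RPL39 was lower there too, at -0.62. RPL36AL, a paralog of RPL36A, had label changes of 0.17 (SE 0.10) in input and 0.27 (SE 0.10) in polysome RNA, where RPL36A was at 0.46 and -0.26. Paralogs of near-identical sequence may exchange reads.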

How the data were processed

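The authors deposited raw read counts per gene for each library. Per the submitters' processing notes they used Trimmomatic 0.38, Bowtie2 and HTSeq 0.11.2 on GRCh38. Neither the annotation release nor the strandedness is given in the sources used here. The aligner, Bowtie2, does not split reads over introns. Lines that name no gene (13.2% to 15.0% of reads listed) were left out. Members, roles and gene lists were chosen with earlier results of these data known. Gene types, positions, lengths and GC content came from GENCODE v29, and start windows from RefSeq.

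Counts were analysed with edgeR 4.0.16 in R 4.3.3 (TMM scaling, filterByExpr, quasi-likelihood F test), as 1 model of all 8 libraries with 4 group terms and 4 residual degrees of freedom, which left 16503 genes. P-values were adjusted by Benjamini-Hochberg over all of them. Levels per kilobase used the median length of the protein-coding transcripts. Input and polysome libraries with the same label and number come from the same lysate, per the labels' protocols and titles. Over all genes the correlation of their deviations from group means was 0.07 in control and 0.07 in knockdown. It was 0.31 and 0.36 over genes of at least 10 CPM, and 0.11 and 0.48 over members. Across labels, the labels tie libraries by number alone. Named genes were FBL, RPL14, RPL36 and RPL37 in every comparison, the members called (the 6 largest each way when over 12), the 3 highest and 3 lowest members, and role groups where described. Other genes of the lists (FAU, RPS6, EEF1G, PABPC1, MDM2, RPL39L, RPL36AL and those called) were named after their values were seen, as were RPL6, RPL8, RPL11 and RPL29 where outside the rule. Alternatives covered scaling, filters, DESeq2 1.42.0, limma-voom (limma 3.58.1), blocks, pseudogene counts, each library left out and, added after seeing the data, a GC correction (smoothing span 0.3). The fit was tested on simulated data.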

Additional observations from a re-analysis of the deposited data

Results flagged for a closer look

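Polysome association of RPL37 and RPL36 differed between the labels in the fit with the lysate as a block. The polysome change less the input change, knockdown against control, was -0.57 for RPL37 (adjusted p = 0.0043) and -0.52 for RPL36 (adjusted p = 0.040, edgeR interaction term). In each gene both libraries labelled knockdown lay above both labelled control in input RNA and below them in polysome RNA. In all, 8 members had this pattern, so it does not by itself set RPL37 and RPL36 apart. Without the block neither was called (adjusted p = 0.76). FBL itself does not follow the labels in these libraries, so what separates the labelled groups is not shown by the counts.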

How the results depend on the processing

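Counts of members called by label in input RNA were 0 in each direction, except 1 higher with DESeq2 and 2 higher with the library number as a replicate block. By label in polysome RNA, 1 member was called higher in the fit described above, against 11 with no filter, 4 with a mean of at least 10 CPM, 8 with DESeq2, 2 with limma-voom, 9 with the number as a replicate block, 0 with the GC correction, 6 with that correction and the number block, 0 with polysome libraries only, 2 with pseudogene counts added and 0 to 12 when a library was left out. Lower calls there were 0, against 1 with no filter, 2 with DESeq2, 5 with limma-voom, 6 with the number block and 0 to 4 when a library was left out. All-gene calls in that comparison moved from 41 higher and 104 lower to 53 and 48 with upper quartile scaling. They were 531 and 586 of 22560 with no filter, and 195 and 131 of 8194 with a mean of at least 10 CPM. DESeq2 gave 508 and 695, limma-voom 75 and 222, and the number block 342 and 711. The GC correction gave 5 and 1, or 421 and 349 with the number block. Polysome libraries only gave 0 and 0, and added pseudogene counts 43 and 104. In input RNA by label, DESeq2 called 37 genes higher and 28 lower, and the number block 53 and 13. Across labels, same-numbered libraries correlated at 0.09 in input and 0.02 in polysome RNA over all genes, at 0.47 and 0.18 over genes of at least 10 CPM, and at 0.05 and 0.40 over members.

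For the difference between polysome and input change, 1 member was called higher with no filter and 1 with the GC correction and lysate block. Lower calls were 2 with the lysate as a replicate block and 1 with the correction as well. Over all genes, 15 were called higher and 40 lower with no filter. The lysate block gave 0 and 9, and the correction and block together 3 and 7. For polysome against input RNA in control, 8 were called higher with a mean of at least 10 CPM, and 7 to 16 when a library was left out, with 7 without input control 1 or input control 2. There 8 were called lower with the GC correction and 10 with the lysate block added. In knockdown, 19 were called higher with both and 10 lower with the correction, and lower calls were 10 to 16 when a library was left out, with 10 without input knockdown 1. Over 16477 genes, lower calls in control were 853 with the correction and 1268 with the block added. In knockdown 2876 of these genes were higher with both, and 854 lower with the correction. The lysate block moved no other count of members called by over 1.5 times. RPL37 in control reversed to 0.38 with the GC correction, with or without the block, and RPL36 to -0.29. The cause was not tested.

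Each group holds 2 libraries, so a lone library is assumed to vary like the other groups when its partner is left out. The member with the fewest counts, RPL17, held 1893 to 5164 per library, which bounds the counting error behind these values.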
